A study of Homo sapiens with 74 samples.

Results

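The replication-dependent histone genes are the clustered genes for the linker histone H1 and the core histones H2A, H2B, H3 and H4. They were taken as every gene of the RNA-seq count tables whose symbol begins with HIST1H, HIST2H, HIST3H or HIST4H, which gave 74 members of the 28131 genes listed. By type these were 6 H1, 18 H2A, 20 H2B, 15 H3 and 15 H4 genes, and 56 of them lie on chromosome 6, 17 on chromosome 1 and 1 on chromosome 12. Each of the 74 matched a RefSeq entry of GRCh38.p14. HIST2H2BA, HIST2H2BC and HIST1H2APS1, counted above by the type in their symbols, are transcribed pseudogenes there.

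The RNA came from 2 established human leukaemia lines with erythroid features, K562 and HEL, and RNA-seq makes up 13 of the 74 samples. K562 was represented by wild-type control cells, by cells labelled DOT1L-/- (DOT1L KO) and by cells labelled ENL-/- (ENL KO), where DOT1L is the methyltransferase of lysine 79 of histone H3 and ENL, encoded by MLLT1, is a reader of acylated histones found in DOT1L-containing complexes. HEL was represented by control cells and by cells with DOT1L knockdown (DOT1L KD). The labels name neither the reagent of the knockdown, nor the position of the edits, nor whether a knockout is 1 clone.

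Columns 2 and 3 of the K562 control were identical over all 28131 genes and were counted as 1 library, which left 2 control, 3 DOT1L KO and 3 ENL KO libraries in K562 and 2 libraries in each HEL group. Nothing in the labels says that replicates came from separate cultures, so p-values measure only the spread between these samples, which may be technical. K562 libraries totalled 15404944 to 29236703 counts, HEL libraries 12151495 to 12811688. The targeted transcripts were lower but present: DOT1L was at 182 ± 5.15 CPM (counts scaled to library size with TMM factors; SD, n = 3) in the DOT1L KO against 263 ± 9.84 (n = 2), MLLT1 was at 154 ± 1.92 CPM in the ENL KO against 216 ± 3.56, and DOT1L was at 29.6 ± 0.641 CPM in the HEL KD against 92.4 ± 7.12. All 8 erythroid markers had 10 or more counts in every library, and their summed level was 3891 to 4230 CPM in K562 control, 7317 to 7633 in the DOT1L KO and 4955 to 5312 in the ENL KO, and 4147 to 4244 in HEL control against 5920 to 6599.99 in the KD. Of 6 lymphoid markers 1 had 10 or more counts in HEL and 3 to 4 did in K562 libraries; they summed to 1.03 to 1.98 CPM in HEL, but to 80.9 and 81.3 CPM in K562 control, 21.3 to 26.3 in the DOT1L KO and 117 to 128 in the ENL KO. The part of these differences between groups in the histone results was not tested.

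Replication-dependent histone genes are transcribed mainly in S phase, when new DNA has to be packed into nucleosomes. Most of their mRNAs end in a stem-loop bound by SLBP instead of a poly(A) tail, and transcription and 3′ end processing take place in histone locus bodies organised by NPAT. A minority of the transcripts is polyadenylated, more so in differentiating cells. The libraries were made from RNA captured on oligo(dT), so the counts cover the polyadenylated share of histone mRNA and not its total. In bulk RNA, fewer cells of a type and less RNA per cell cannot be told apart.

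H2A and H2B genes often sit head to head and share the DNA between their starts, which carries the octamer bound by POU2F1, CCAAT boxes and TATA boxes. The bases before the start of 4 members are shown because the results turn on them: HIST1H2BK had the highest level per kb in K562 control, HIST3H2A and its partner rose together in the DOT1L KO, and HIST1H2AL and HIST1H1B were nearly lost there. Each run holds the 250 bases before the RefSeq start (GRCh38.p14), read 5′ to 3′ on the gene's own strand. Capitals mark ATTTGCAT, CCAAT and TATAAA on either strand, and neighbouring or overlapping matches run together.
HIST1H2BK: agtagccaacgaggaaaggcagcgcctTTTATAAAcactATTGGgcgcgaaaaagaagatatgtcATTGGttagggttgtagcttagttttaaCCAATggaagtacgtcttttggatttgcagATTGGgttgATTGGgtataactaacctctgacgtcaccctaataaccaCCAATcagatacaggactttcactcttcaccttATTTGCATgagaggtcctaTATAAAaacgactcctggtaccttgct
HIST3H2A: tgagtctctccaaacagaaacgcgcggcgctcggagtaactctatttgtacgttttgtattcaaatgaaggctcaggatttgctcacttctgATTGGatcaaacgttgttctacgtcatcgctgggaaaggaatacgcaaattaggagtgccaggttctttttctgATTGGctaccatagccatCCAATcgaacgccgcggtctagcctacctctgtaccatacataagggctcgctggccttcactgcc
HIST1H2AL: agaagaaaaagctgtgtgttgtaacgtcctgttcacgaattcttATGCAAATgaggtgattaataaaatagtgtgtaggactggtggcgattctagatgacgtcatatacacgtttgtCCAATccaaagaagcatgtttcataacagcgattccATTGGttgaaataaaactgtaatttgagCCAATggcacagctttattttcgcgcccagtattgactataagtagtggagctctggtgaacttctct
HIST1H1B: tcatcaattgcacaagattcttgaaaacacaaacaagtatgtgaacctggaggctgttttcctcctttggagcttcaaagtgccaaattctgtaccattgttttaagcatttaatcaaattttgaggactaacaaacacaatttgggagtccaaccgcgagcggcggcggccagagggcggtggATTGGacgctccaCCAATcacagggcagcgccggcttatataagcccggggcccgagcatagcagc
They lie at chr6:27146859-27147108 (minus strand), chr1:228457874-228458123 (minus strand), chr6:27865067-27865316 (plus strand) and chr6:27867589-27867838 (minus strand). The HIST3H2A window also covers most of the 247 bases between that gene and HIST3H2BB. It holds CCAAT matches but neither ATTTGCAT nor TATAAA. HIST1H2BK holds all 3 motifs, HIST1H2AL holds ATTTGCAT and CCAAT, and HIST1H1B holds CCAAT only.

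RefSeq gave such a window for 66 of the 74 members. ATTTGCAT was present in 26 of them (39.4%) against 1.66% of 27305 genes, in 14 of 18 H2B and 11 of 16 H2A windows, in 1 of 13 H3 windows and in none of 6 H1 and 13 H4 windows. CCAAT was present in 56 (84.8%) against 33.0% of all genes, and the H4 windows differed from the other types in having it in 3 of 13. TATAAA was present in 43 (65.2%) against 11.1%. A match is a description of these letters and not of a bound site.

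The histone genes were detected very unevenly. In K562, 56 of the 74 members had a count in some library and 41 passed the filter on low counts. In HEL, 54 had a count and 14 passed. The 15 members at 0 in all 12 libraries included HIST1H2AA, HIST1H2BA and HIST3H3, which are known from the testis. They also included HIST2H4A, HIST2H4B, HIST2H3A, HIST2H3C, HIST2H2AA3 and HIST2H2AA4, each of which the tables list at both positions of an identical pair, so a listed 0 of these 6 does not show that they were silent. A count of 0 allows up to 0.101 to 0.195 CPM in the K562 libraries and up to 0.238 to 0.244 CPM in HEL (3 counts, counting error only).

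A linker histone gene and an H2B gene supplied most of the signal. HIST1H2BK and HIST1H1C together made up 73.1% to 80.2% of all member CPM in K562 libraries and 79.3% to 80.5% in HEL. Per kb of exon, HIST1H2BK led in K562 control with a mean of 847 CPM per kb, followed by HIST1H1C with 736, the H2A gene HIST1H2AC with 128, the H2B gene HIST1H2BJ with 95.8, HIST3H2A with 92.0 and the H3 gene HIST1H3H with 64.3. The leading H4 gene, HIST1H4H, reached 18.9 CPM per kb. In HEL control the order at the top was reversed, with HIST1H1C at 145 and HIST1H2BK at 91.7 CPM per kb, and HIST1H2AC followed at 13.1. HIST1H1C encodes the linker histone H1.2, and HIST1H2BK has a second exon in the tables, as have HIST1H2BD, HIST1H3D and HIST2H2BF among the members tested.

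The summed level of all 74 members was 1698 ± 38.0 CPM in K562 control (n = 2), 1756 ± 64.5 with DOT1L knocked out and 1813 ± 64.4 with ENL knocked out (n = 3 each). It was 233 ± 6.49 CPM in HEL control and 268 ± 1.87 in the KD (n = 2 each). The range of K562 control, 1671 to 1725 CPM, overlapped that of the DOT1L KO, 1682 to 1795. HEL values came from a separate table that counts reads and not fragments, so the lower HEL level also goes together with the way of counting.

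**Figure D1:**
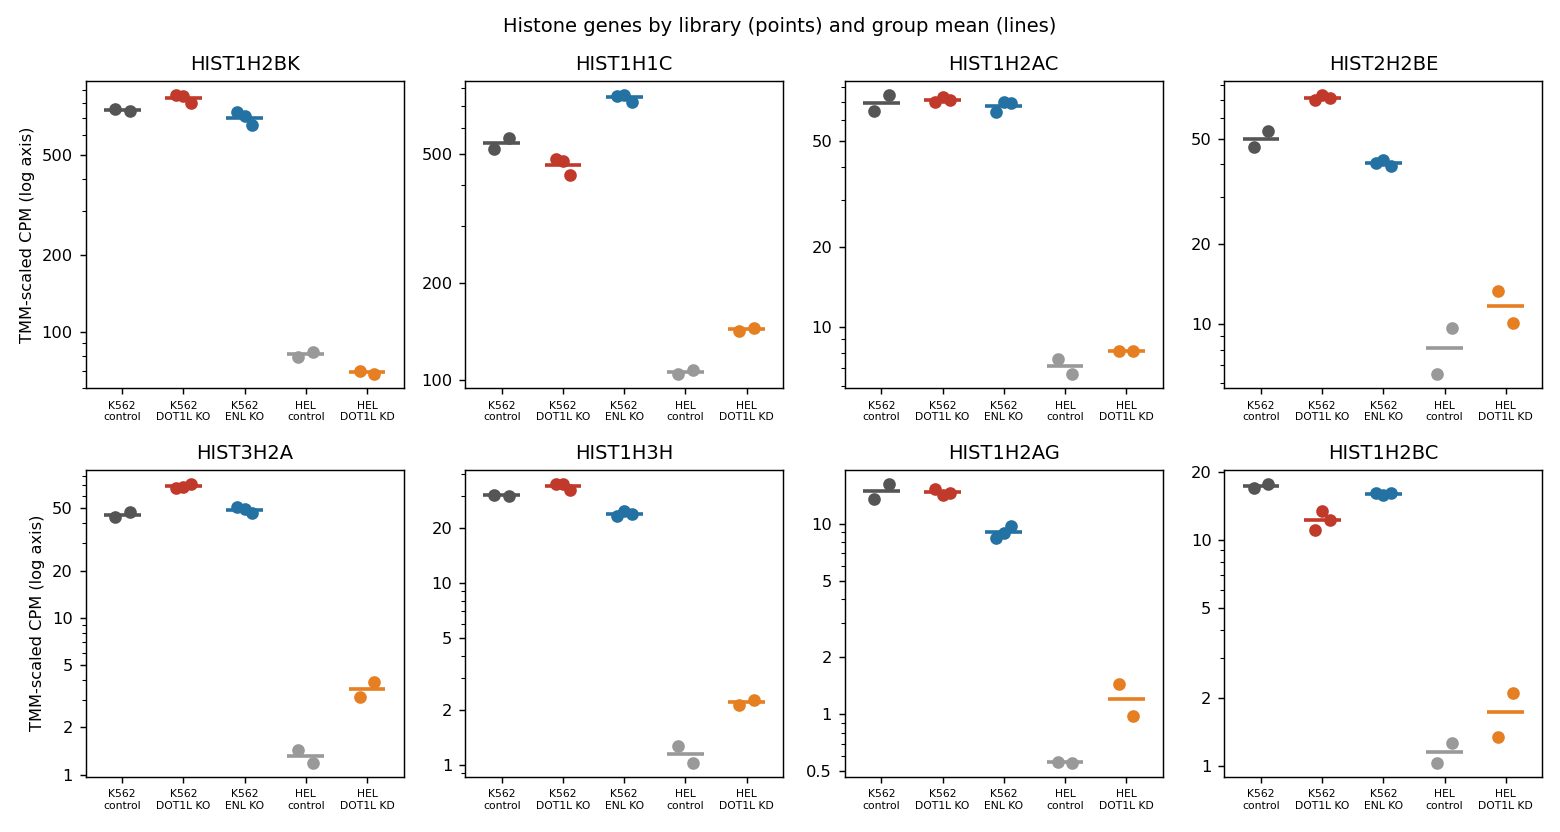
TMM-scaled CPM on log axes for 8 histone genes in the 5 groups; each point is 1 library and each line a group mean. HIST3H2A and HIST2H2BE lie above control in the K562 DOT1L KO and in the HEL KD, HIST1H1C lies below control in the DOT1L KO and above it in the ENL KO, and HIST1H2AC runs from 64.1 to 74.6 CPM over the K562 libraries.

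In the K562 DOT1L KO the histone genes did not move as a block. Of the 41 members tested, 7 were higher and 9 lower than in control by edgeR's quasi-likelihood test (Benjamini-Hochberg adjustment over all genes, threshold 0.05), and 51.1% of all 14301 genes tested were called in this comparison against 39.0% of the members. The median log2 fold change of the members was -0.02, beside 0.01 over all genes tested, and it turned to 0.03 without DOT1L KO library 2. The members on the chromosomes split: of 7 tested on chromosome 1, 4 rose and none fell (median 0.60), and of 34 tested on chromosome 6, 3 rose and 9 fell (median -0.16). For reference, 26.9% of all genes tested were higher and 24.2% lower.

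The chromosome 1 members that rose were all H2A or H2B genes, as were all members tested there except the H3 gene HIST2H3D. HIST3H2A, an H2A gene at chr1:228457364-228457859, was at 44.0 and 47.2 CPM in control, at 67.7, 68.4 and 71.8 CPM in the DOT1L KO, and the ENL KO was at 50.7, 49.1 and 46.4 CPM. Every DOT1L KO library lay above every other K562 library. The log2 fold change against control was 0.60 (SE 0.07, adjusted p = 7.00e-06). HIST3H2BB, the H2B gene that starts 247 bases away on the other strand, had 17 and 23 fragments in control, 50, 77 and 46 in the DOT1L KO, and the ENL KO had 15, 15 and 18. The DOT1L KO libraries were again apart from the rest (log2 fold change 1.33, SE 0.27, adjusted p = 0.000901).

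The HIST2 group of chromosome 1 gave the other increases. HIST2H2BE, an H2B gene with a polyadenylated form, was at 46.6 and 53.3 CPM in control, at 70.1, 73.1 and 71.2 CPM in the DOT1L KO, and the ENL KO was at 40.5, 41.6 and 39.6 CPM. The 3 groups did not overlap: the DOT1L KO was highest and the ENL KO lowest. Against control, HIST2H2BE changed by 0.52 on the log2 scale in the DOT1L KO (SE 0.07, adjusted p = 3.86e-05). In the ENL KO it changed by -0.30 (SE 0.07, adjusted p = 0.00439), a call past the threshold only with control library 2. HIST2H2BF rose by 0.66 on the log2 scale in the DOT1L KO (SE 0.19), from 2.46 and 2.74 CPM to 4.09, 4.05 and 4.21 CPM, a call lost without control library 1, and its exons overlap FCGR1A on the opposite strand. Its neighbours HIST2H2AC (0.77, SE 0.33), HIST2H3D (0.53, SE 0.56) and the pseudogene HIST2H2BC (-0.02, SE 0.31) did not pass the test.

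H4 genes, which encode the partner of H3 in the nucleosome core, passed the test in 1 direction. Of 8 tested, 4 fell and none rose in the DOT1L KO (median -0.55). That is 50% called, beside 51.1% of all genes tested (26.9% higher, 24.2% lower), so the share called was not above that of all genes. All 8 lie on chromosome 6, where 3 of the members tested rose and 9 fell. Histone type and location can therefore not be told apart here. HIST1H4I was at 3.35 and 4.02 CPM in control and at 2.50, 1.69 and 1.94 CPM in the DOT1L KO, with no overlap (log2 fold change -0.86, SE 0.21, adjusted p = 0.00337). HIST1H4K fell by 0.83 (SE 0.21), HIST1H4C by 1.04 (SE 0.36) and HIST1H4E by 0.66 (SE 0.26) on the log2 scale. The call of HIST1H4C was lost without control library 2 or DOT1L KO library 2, and that of HIST1H4E in 8 of 16 alternative fits. These are minor sums: all H4 genes together were at 20.3 ± 0.311 CPM in control and 17.1 ± 0.961 in the DOT1L KO. HIST1H4H, the most abundant H4 gene per kb, had a log2 fold change of 0.19 (SE 0.12) and did not pass the test. HIST1H4D did not pass it either, at 0.697 and 0.993 CPM in control and 1.45, 1.49 and 1.51 CPM in the DOT1L KO (0.81, SE 0.36, adjusted p = 0.0730), though the groups did not overlap. Against the ENL KO it was called higher in the DOT1L KO (0.92, SE 0.33).

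Among the other chromosome 6 genes, the H2B gene HIST1H2BC was at 17.0 and 17.7 CPM in control and at 11.1, 13.4 and 12.2 CPM in the DOT1L KO. The groups did not overlap, and the ENL KO, at 16.2, 15.9 and 16.1 CPM, lay between them (change on loss of DOT1L -0.50 on the log2 scale, SE 0.10, adjusted p = 0.000750). The H3 gene HIST1H3B fell by 0.69 on the log2 scale (SE 0.18), the H2B gene HIST1H2BN by 0.35 (SE 0.12) and HIST1H1C by 0.22 (SE 0.06), and the calls of HIST1H3B and HIST1H1C were lost without control library 2 and that of HIST1H2BN in 6 of 16 alternative fits. Increases on chromosome 6 were small: 0.41 (SE 0.11) for the H2A gene HIST1H2AI, 0.36 (SE 0.12) for the H3 gene HIST1H3D and 0.16 (SE 0.06) for HIST1H2BK. HIST1H2BK was at 759 and 745 CPM in control and at 864, 857 and 799.7 in the DOT1L KO, and its call was lost in 6 of 16 alternative fits. HIST1H2AI lost its call without control library 2 and HIST1H3D without control library 1. The exons of HIST1H3D overlap those of the H2A gene HIST1H2AD on the same strand.

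**Figure D2:**
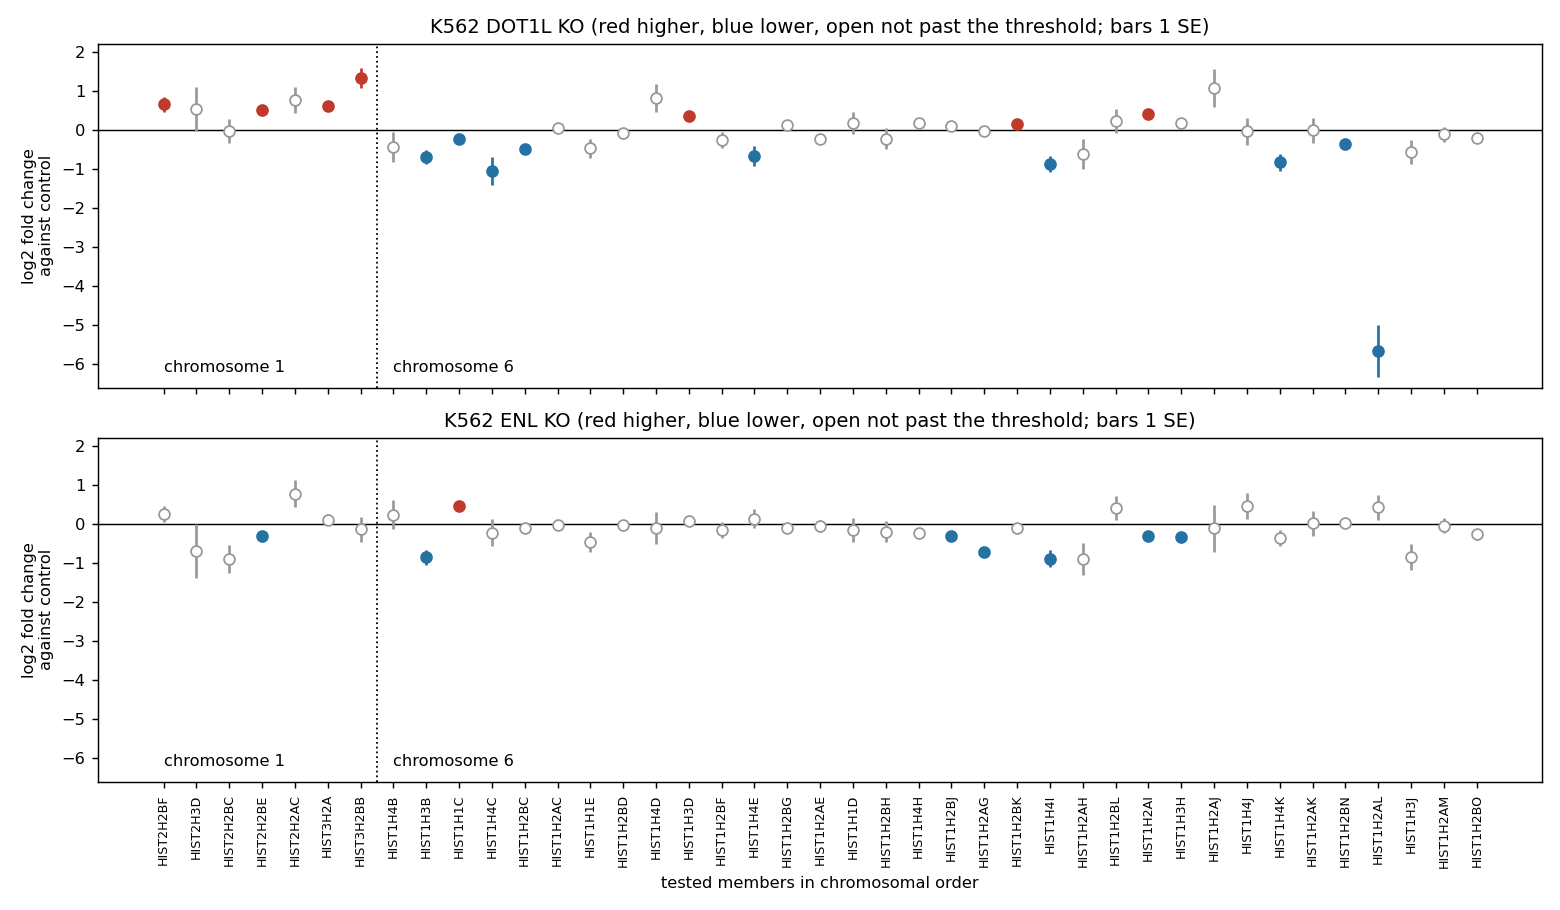
Log2 fold change against control (y axis, bars 1 SE) of the 41 members tested in K562, in chromosomal order, for the DOT1L KO (top) and the ENL KO (bottom); red and blue points passed the test as higher and lower, open points did not. In the DOT1L KO the 4 called chromosome 1 members lie above 0, 9 of the 12 called chromosome 6 members lie below it, and HIST1H2AL stands apart at -5.66.

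Some members were nearly lost in the DOT1L KO, and these were singled out after their values were seen. A pair of them lies near the far end of the chromosome 6 cluster. HIST1H2AL, an H2A gene at chr6:27865329-27865798, had 17 and 25 fragments in control, 1, 0 and 0 in the DOT1L KO, and the ENL KO had 27, 28 and 20. Only the DOT1L KO libraries were at or near 0. The ratio of scaled counts of the DOT1L KO to control was 0.0140 (exact 95% interval 0.000345 to 0.0822, counting error only). HIST1H2AL passed the filter on low counts only through its control and ENL KO libraries. Since it was picked for these counts, the interval and edgeR's adjusted p of 1.07e-05 describe them and are no separate support. Over 16 alternative fits its log2 fold change ran from -7.41 to -5.08.

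The next gene, HIST1H1B, encodes the linker histone H1.5 and lies tail to tail with HIST1H2AL at chr6:27866792-27867581. It had 10 and 7 fragments in control, 0, 0 and 0 in the DOT1L KO, and the ENL KO had 8, 9 and 4. These counts were too low for the filter. Control was at least 9.66-fold higher than the DOT1L KO, with the DOT1L KO set to 3 counts over the group, and without the filter, an alternative chosen after seeing the data, the adjusted p was 5.08e-05. The nearest expressed members on both sides were not near 0. HIST1H2BN, the member just before HIST1H2AL, was called lower (-0.35) with 192 and 173 fragments in control and 147, 206 and 136 in the DOT1L KO. HIST1H3J, after HIST1H1B, had 37 and 27 in control and 17, 40 and 18 in the DOT1L KO and did not pass the test (-0.55, adjusted p = 0.152). HIST1H3I and HIST1H4L, between HIST1H1B and HIST1H3J, were at 0 in every K562 library and give no information.

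HIST1H2BB, an H2B gene of another group of the cluster at chr6:26043227-26043657, had the same pattern at lower counts. It had 5 and 6 fragments in control, 0, 1 and 0 in the DOT1L KO, and the ENL KO had 4, 7 and 6. The ratio of scaled counts of the DOT1L KO to control was 0.0533 (exact 95% interval 0.00124 to 0.367), and without the filter edgeR's adjusted p was 0.00624. HIST1H2BB was also picked for its counts, so these values describe them and are no separate support. A low member also changed the other way. HIST2H2AB, an H2A gene of chromosome 1 too low for the filter, had 0 and 1 fragments in control. Its counts were 4, 10 and 5 with DOT1L knocked out and 4, 1 and 0 with ENL knocked out. Scaled counts of the DOT1L KO were 11.1-fold those of control (exact 95% interval 1.77 to 463). Without the filter edgeR's adjusted p was 0.0346. This gene was likewise picked for its counts.

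HIST1H2AL and HIST1H1B had no counterpart in the HEL KD that these counts could show. HIST1H2AL was at 0 in all 4 HEL libraries, and HIST1H1B had 2 and 4 reads in HEL control and 2 and 2 in the KD. A gene that is no member but had this pattern in K562, also noticed after its values were seen, was the uncharacterised LOC100131289 at chr6:27761744-27763187, with 25 and 11 fragments in control, 0, 2 and 0 in the DOT1L KO, and the ENL KO had 24, 23 and 15 (DOT1L KO against control, log2 fold change -4.68, SE 0.73, adjusted p = 0.000128). The members between LOC100131289 and HIST1H2AL had counts in each DOT1L KO library: HIST1H2AI among them rose (0.41), HIST1H4K (-0.83) and HIST1H2BN (-0.35) fell, and the others did not pass the test or were too low for it.

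**Figure D3:**
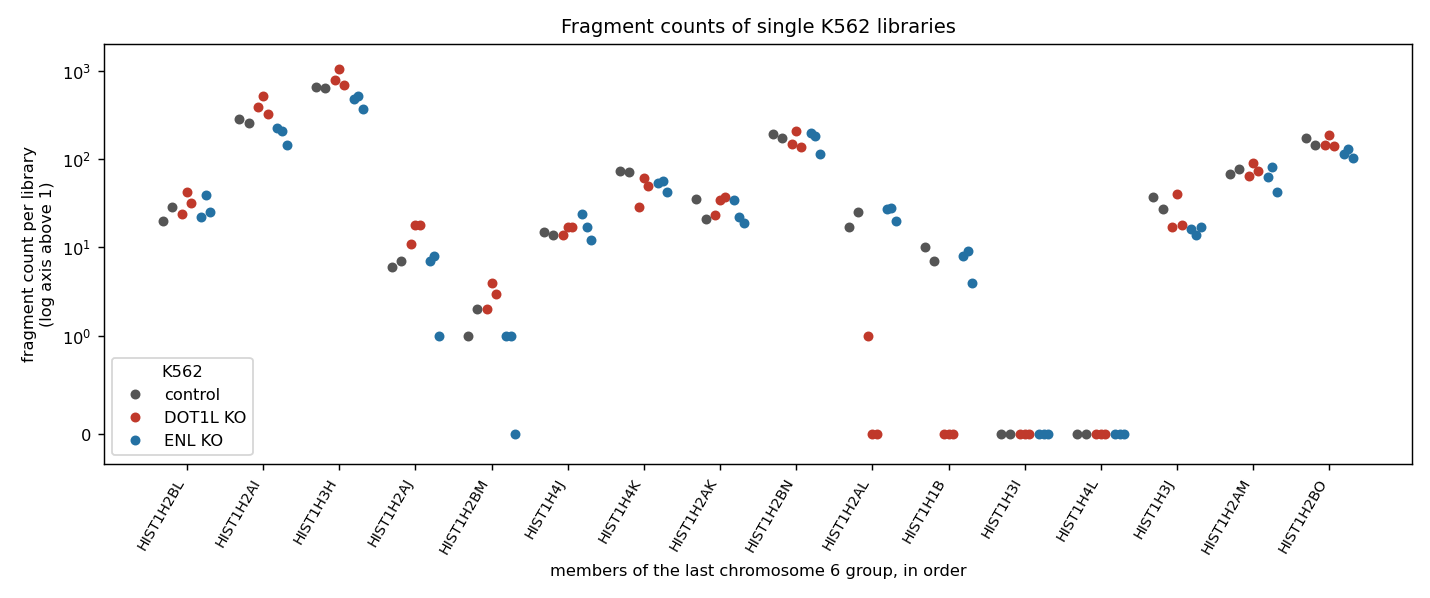
Fragment counts (y axis, log scale above 1) of each K562 library for the 16 members of the last group on chromosome 6, in order; dark grey is control, red DOT1L KO and blue ENL KO. The red points drop to 1, 0 and 0 at HIST1H2AL and to 0 at HIST1H1B, while control and ENL KO libraries hold between 4 and 28 fragments there.

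The chromosome 6 histones lie among other genes, so those were counted as well. Between the first and the last histone gene, 32 other genes are listed and 21 were tested in K562, and of these 16 fell and none rose in the DOT1L KO (median log2 fold change -0.56). The 34 histone members tested in the same stretch had a median of -0.16. The neighbours that fell included the butyrophilin genes BTN3A2 (-1.47, SE 0.14), BTN2A2 (-0.65, SE 0.11) and BTN2A1 (-0.56, SE 0.08), the iron regulator HFE (-1.11, SE 0.32), and the zinc finger gene ZNF184 (-0.79, SE 0.09). In the ENL KO 10 of the 21 fell and none rose (median -0.33), and in the HEL KD 5 of 20 rose and 7 fell (median -0.11).

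In the DOT1L KO, lower values were not limited to the histone stretch. Windows of 5 Mb with at least 20 genes tested were formed with the histone members left out. The window at 25 to 30 Mb had a median of -0.40 in the DOT1L KO and was the second lowest of 10 on chromosome 6. The window at 10 to 15 Mb was lowest with -0.42 and that at 0 to 5 Mb followed with -0.38. In the ENL KO the window at 25 to 30 Mb was the lowest of 10 (-0.21), followed by that at 155 to 160 Mb (-0.02), while the median was 0.07 at 10 to 15 Mb and 0.15 at 0 to 5 Mb. Within 500 kb of HIST3 on chromosome 1, by contrast, 8 of 11 other genes tested rose and 1 fell in the DOT1L KO (median 0.25). Higher values there were not limited to HIST3 either. The window at 225 to 230 Mb, which holds HIST3, had a median of 0.26. All windows given from 205 to 250 Mb had medians between 0.17 and 0.39, while the lowest of 30 on chromosome 1 was at -0.21 (10 to 15 Mb). Within 500 kb of the HIST2 genes from HIST2H2BF to HIST2H2AB, 5 of 15 rose and 4 fell (median 0.07).

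**Figure D4:**
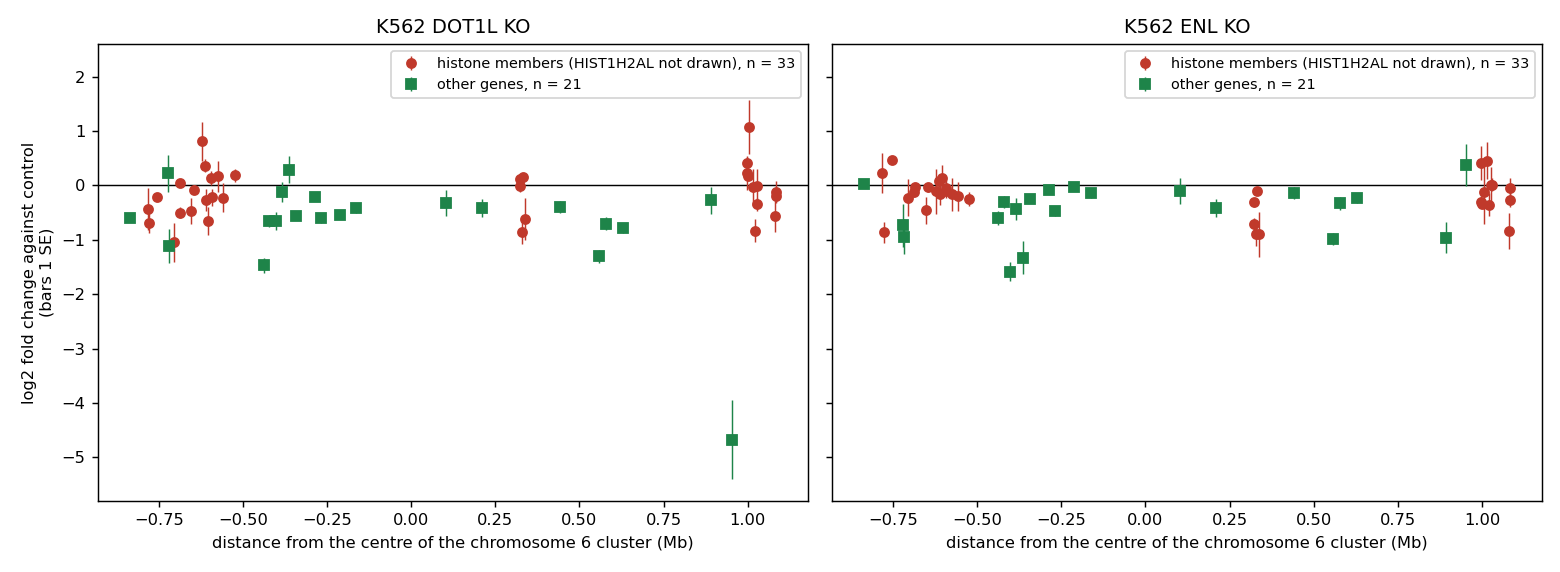
Log2 fold change against control (bars 1 SE) along the chromosome 6 cluster, by distance from its centre in Mb, for 33 histone members (red circles, HIST1H2AL left out) and 21 other genes (green squares) in the DOT1L KO (left) and the ENL KO (right). In the DOT1L KO the green squares sit mostly below 0, around a median of -0.56, while the red circles spread to both sides; the lowest square is LOC100131289 at -4.68.

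The ENL KO called fewer histone genes, mainly lower. Of 41 members tested 1 rose and 7 fell, which is 19.5% beside 41.0% of all genes tested (18.8% higher, 22.2% lower), and the median log2 fold change was -0.11 against 0.00 over all genes tested. A lane is named in the labels of control and DOT1L KO libraries but not in those of the ENL KO, so a batch and the ENL KO cannot be told apart. Both knockouts were compared with the same 2 control libraries.

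HIST1H1C was the member that rose in the ENL KO. It was at 517 and 559.8 CPM in control, at 753, 759 and 724 CPM in the ENL KO and at 481, 476 and 429.8 CPM in the DOT1L KO. The ENL KO was above and the DOT1L KO below control, with no overlap. The log2 fold change was 0.47 in the ENL KO (SE 0.06, adjusted p = 3.67e-05), against -0.22 in the DOT1L KO (SE 0.06, adjusted p = 0.00760). The direct difference, DOT1L KO minus ENL KO, was -0.69 on the log2 scale (SE 0.05). All 6 H1 genes summed to 544 ± 30.6 CPM in control, 749 ± 19.0 in the ENL KO and 466 ± 27.6 in the DOT1L KO.

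The decreases of the ENL KO were of core histone genes, but only 3 H1 genes were tested. Besides HIST1H1C these were HIST1H1E (-0.46, SE 0.25) and HIST1H1D (-0.16, SE 0.31), which did not pass the test. The H2A gene HIST1H2AG was at 13.4 and 16.2 CPM in control, at 8.45, 8.91 and 9.77 CPM in the ENL KO and at 15.3, 14.2 and 14.5 CPM in the DOT1L KO, so that only the ENL KO stood apart (log2 fold change -0.72, SE 0.11, adjusted p = 0.000182). Its head-to-head partner HIST1H2BJ fell as well, by 0.31 on the log2 scale (SE 0.08), a call lost without control library 1. HIST1H3H was at 30.6 and 30.3 CPM in control and at 23.3, 24.9 and 23.9 CPM in the ENL KO, with no overlap (-0.34, SE 0.08, adjusted p = 0.00328). HIST1H3B fell by 0.86 (SE 0.19) and HIST1H4I by 0.89 (SE 0.22), and these also fell in the DOT1L KO. Their ENL KO calls were lost without control library 2, and that of HIST1H2AI (-0.30, SE 0.11) in 8 of 16 alternative fits.

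Between the knockouts themselves, which shared no library, 14 of 41 members had more RNA in the DOT1L KO and 5 had less (46.3%, beside 60.2% of all genes tested, 31.8% higher and 28.3% lower). With DESeq2 the split was 9 higher and 8 lower, and without the filter it was 13 and 10. On chromosome 1 this held for 5 of 7 in the direction of more RNA and for none in the other. HIST2H2BE differed by 0.82 (SE 0.06), HIST1H2AG by 0.70 (SE 0.10), HIST1H2AI by 0.71 (SE 0.10) and HIST1H3H by 0.51 (SE 0.07) on the log2 scale. The members lower in the DOT1L KO were HIST1H2AL, HIST1H1C, HIST1H2BC (-0.39, SE 0.09), HIST1H2BN (-0.37, SE 0.11) and HIST1H4E (-0.79, SE 0.23). HIST1H4H, not past the threshold in either knockout against control, was 0.43 higher in the DOT1L KO than in the ENL KO (SE 0.11).

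Genes that share a promoter region were compared pairwise. The tables hold 13 pairs of members on opposite strands whose starts face away from each other, with 223 to 346 bases between them. HIST1H2BF is paired with both HIST1H3D and HIST1H2AD, which overlap, across the same 265 bases. Members listed at both positions of an identical pair were not paired. In the DOT1L KO both genes were tested in 10 pairs, both passed the threshold in 1 (HIST3H2A and HIST3H2BB), 1 of the genes did in 6 and neither in 3, and the log2 fold changes had the same sign in 5 of 10. HIST1H2BC fell while HIST1H2AC, 240 bases away, had a log2 fold change of 0.04 (SE 0.07). In the ENL KO both passed in 1 pair (HIST1H2BJ and HIST1H2AG), 1 of the genes in 2 pairs and neither in 7. The levels of partners were also unequal: in K562 control HIST1H2BK was at 847 CPM per kb and its partner HIST1H2AH at 2.92, and HIST3H2A was at 92.0 and HIST3H2BB at 2.08.

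In HEL, where 14 members were tested, 7 rose and 1 fell after DOT1L KD (57.1%, beside 55.0% of all genes tested, 27.0% higher and 28.0% lower). The median log2 fold change of the members was 0.48, beside 0.01 over all genes tested. With DESeq2, which kept 54 members, it was 0.09. HIST1H1C was at 105 and 108 CPM in control and at 142 and 146 CPM in the KD, with no overlap (log2 fold change 0.44, SE 0.04, adjusted p = 1.85e-12). HIST1H2BK was the gene that fell, from 79.4 and 83.2 CPM to 69.8 and 67.9 CPM (-0.24, SE 0.05, adjusted p = 0.000104). Both calls held in all 10 alternative fits, and so did that of HIST3H2A.

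HIST3H2A rose in HEL as in the K562 DOT1L KO, at a far lower level: 1.44 and 1.19 CPM in control and 3.10 and 3.90 CPM in the KD (log2 fold change 1.41, SE 0.29, adjusted p = 4.53e-05). HIST2H2BE also rose in both lines. It was at 6.47 and 9.68 CPM in HEL control and at 13.3 and 10.1 CPM in the KD, the groups not overlapping but close to each other (0.53, SE 0.15, adjusted p = 0.00281). The other increases, HIST1H2BH (1.07, SE 0.36), HIST1H3H (0.93, SE 0.33), HIST1H2AG (1.10, SE 0.45) and HIST1H3G (0.90, SE 0.38), rested on 7 to 28 reads per library. Of 10 alternative fits, 3 lost the call of HIST1H2BH, 3 that of HIST1H3H, 5 that of HIST1H2AG and 5 that of HIST1H3G. DESeq2 called 3 members in HEL and a fit without the filter called 5, and the calls of HIST2H2BE and HIST1H2AG were lost in both.

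HIST1H3G differed between the lines in whether it was seen at all. It had 13 and 9 reads in HEL control and 24 and 17 in the KD but 0 in every K562 library, each of which had a higher total count. HIST1H3E, another H3 gene of the same group, had 5 to 7 reads in HEL and 0 to 3 fragments in K562. Both were singled out after their values were seen.

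The difference of the DOT1L effect between K562 and HEL was tested as an interaction, in which the cell line goes together with KO against KD and with fragment against read counting. Of 42 members tested, 1 had a higher change in K562 and 6 a lower one (16.7%, beside 38.9% of all genes tested, 19.1% higher and 19.8% lower). Only 13 members passed the filter in both lines, and all 7 calls were among them. The rest had few or no counts in 1 line and could hardly pass, as HIST2H2BF with an SE of 2.41. The lower share therefore does not show that histone genes differed less between the lines than other genes. HIST1H1C fell in the K562 DOT1L KO and rose in the HEL KD, with a difference of -0.67 on the log2 scale (SE 0.08, adjusted p = 1.23e-06). HIST1H2BK did the opposite, with a difference of 0.38 (SE 0.08, adjusted p = 0.000482). HIST2H2BE, with 0.52 in K562 and 0.53 in HEL, did not pass this test. Its HEL value was 0.27 without control library 1, 0.85 without control library 2 and 0.32 without KD library 1, so the closeness of both values rests on single HEL libraries.

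**Figure D5:**
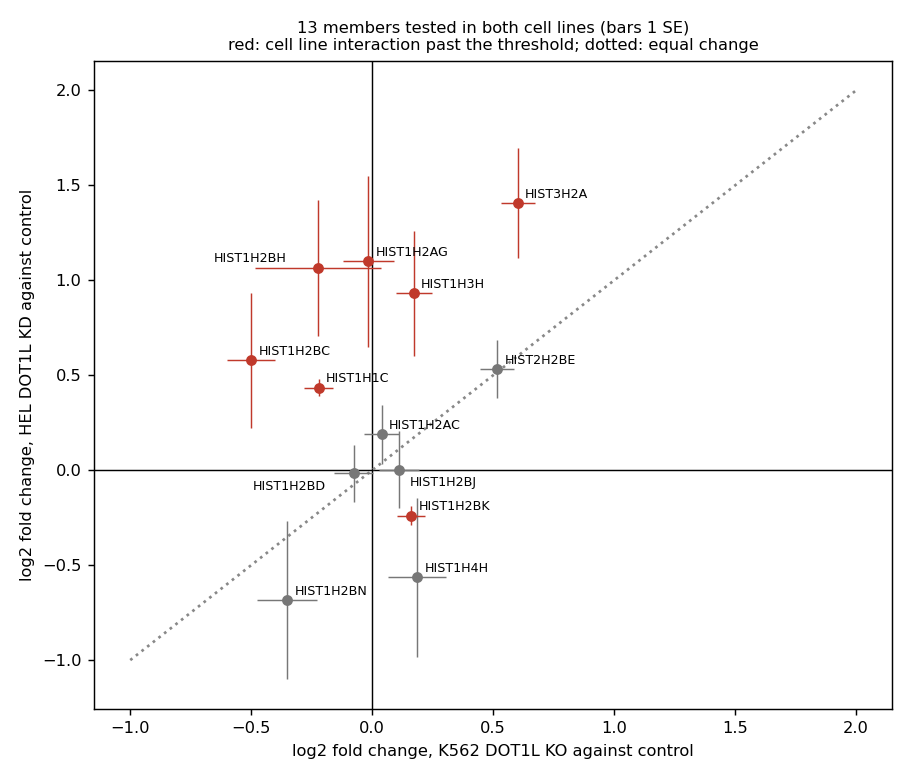
Log2 fold change in the K562 DOT1L KO (x axis) and in the HEL DOT1L KD (y axis) of the 13 members tested in both lines, with bars of 1 SE; red points passed the interaction test, and the dotted line marks equal change. HIST2H2BE lies on the line, HIST3H2A lies above it in the quadrant of increases, and HIST1H1C and HIST1H2BK sit in opposite quadrants.

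The genes that serve the histone genes were looked at as lists, with no test of a list. Over all genes tested, 26.9% rose and 24.2% fell in the DOT1L KO. In the ENL KO 18.8% rose and 22.2% fell, and in HEL 27.0% rose and 28.0% fell. Of 33 tested genes of histone mRNA 3′ processing and turnover, 6 rose and 9 fell in the DOT1L KO, 8 rose and 5 fell in the ENL KO, and in HEL 8 of 32 rose and 11 fell. The U7 snRNP proteins LSM10 (-0.29, SE 0.08) and LSM11 (-0.28, SE 0.10) fell in the DOT1L KO, where SLBP had a log2 fold change of 0.12 (SE 0.06) and NPAT one of 0.20 (SE 0.12), neither past the threshold. In HEL, LSM11 (-0.56, SE 0.10), NPAT (-0.48, SE 0.06), the histone locus body protein CASP8AP2 (-0.23, SE 0.05) and SLBP (-0.17, SE 0.04) fell. Of 13 transcription factors of histone genes, 4 rose and 2 fell in the DOT1L KO, 3 rose and 1 fell in the ENL KO, and 4 rose and 4 fell in HEL. POU2F1, which binds the octamer, fell by 0.29 in the DOT1L KO (SE 0.08) and rose by 0.19 in HEL (SE 0.05).

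Genes of S phase were counted too, to be set beside the same shares of all genes tested. Of 24 tested, 11 rose and 3 fell in the DOT1L KO (median 0.13), 14 rose and 2 fell in the ENL KO (median 0.17), and 8 rose and 11 fell in HEL (median -0.05). E2F1, a transcription factor of S phase entry, rose in each comparison, by 0.99 (SE 0.11), 0.51 (SE 0.11) and 0.31 (SE 0.06) on the log2 scale. Of 21 histone chaperones, 2 rose and 5 fell in the DOT1L KO, 6 rose and 2 fell in the ENL KO, and 8 rose and 5 fell in HEL. The paralogues ASF1A and ASF1B, chaperones of H3 and H4, moved apart in the DOT1L KO (-0.38 and 0.38, SE 0.07 each) and in HEL (-0.29 and 0.39, SE 0.07 and 0.05).

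The replication-independent histones, whose mRNAs are polyadenylated as a rule, were counted for comparison, also to be set beside the shares of all genes tested. Of 7 tested in K562, 3 rose and 1 fell in the DOT1L KO and 1 rose and 2 fell in the ENL KO, and of 9 tested in HEL, 7 rose and 2 fell (median 0.25). H2AFZ, which encodes H2A.Z, was at 343 ± 6.78 CPM in K562 control, 397 ± 25.6 in the DOT1L KO (0.21 on the log2 scale, SE 0.06), and the ENL KO was at 253 ± 3.89 (-0.44, SE 0.06). The linker histone gene H1FX also fell in the ENL KO, from 150.4 ± 10.3 to 103 ± 21.1 CPM (-0.55, SE 0.12), while HIST1H1C rose. H2AFX, the source of the DNA damage mark on H2A.X, rose by 0.68 in HEL (SE 0.04). H1F0, the linker histone of resting and differentiating cells, was at 868 ± 4.38 CPM in HEL control and 1031 ± 4.12 in the KD (0.25, SE 0.03) but had 1 to 3 fragments in each K562 library. H3F3A, a gene of the H3.3 histone that cells use widely, was listed at 0 in all libraries. This listed 0 does not show that the gene was silent, and its reason was not tested.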

How the data were processed

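Polyadenylated RNA of K562 and HEL was sequenced as strand-marking dUTP libraries, per the labels' protocols. The authors deposited raw counts per gene, fragments in K562 and reads in HEL, per the file headers, with exon positions and exonic length. HISAT2 2.1.0 and featureCounts 1.6.1 are named in the submitters' processing notes; their settings, including the use of strand and of multiply mapped reads, are not given in the sources used here. Reads of near-identical histone copies can be split or dropped by such settings, and antisense reads can be misassigned. Gene positions in the tables overlapped those of RefSeq GRCh38.p14 for 25097 of 25101 matched genes. The other 61 samples of the series were not analysed here.

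Groups came from the labels. The K562 control columns 2 and 3 were identical and entered once. R 4.3.3 with edgeR 4.0.16 was used: low genes were removed by filterByExpr (at least 10 counts, total of at least 15), and the rest were scaled with TMM factors and compared with edgeR's quasi-likelihood test and Benjamini-Hochberg adjustment over all genes tested, at a threshold of 0.05. K562 groups shared 1 fit, HEL had another, and the interaction used a joint fit of K562 control, DOT1L KO and HEL. CPM values are TMM-scaled, CPM per kb divides by the tables' exonic length, and SE was derived from the F statistic. The functions were tested on simulated data. Alternatives were other scalings, DESeq2 1.42.0, no filter, a replicate block, only the groups compared, every deposited column, and leaving out each replicate.

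The members, gene lists and tests were chosen with earlier results of these data known. Genes named by rule were the 4 largest increases and decreases past the threshold with a mean of at least 5 CPM in each comparison with a control, and the gene of each histone type with the highest CPM per kb in each control. Other genes named were chosen after their values were seen. A floor of 3 counts and the 95% intervals cover counting error only, since PCR reads are not independent molecules.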

Additional observations from a re-analysis of the deposited data

Results flagged for a closer look

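In 7 members the change after DOT1L depletion differed between K562 and HEL in the interaction test (K562 DOT1L KO change minus HEL DOT1L KD change, log2 scale, edgeR's quasi-likelihood test). The differences were -0.82 for HIST3H2A, -0.67 for HIST1H1C, -1.10 for HIST1H2BC, -1.31 for HIST1H2BH, -1.14 for HIST1H2AG, 0.38 for HIST1H2BK and -0.78 for HIST1H3H. HIST3H2A rose in both lines, and more in HEL. HIST1H1C and HIST1H2BK passed the threshold in opposite directions in the lines, and their difference was called in all 16 alternative fits. HIST1H2BC fell in K562 and had a log2 fold change of 0.58 in HEL that did not pass the test. HIST1H2BH, HIST1H2AG and HIST1H3H rose in HEL and did not pass the threshold in the K562 DOT1L KO. HIST1H2AG and HIST1H3H each lost the interaction call in 9 of 16 alternative fits, and HIST1H2BH lost it in 7. In this comparison the cell line, the kind of depletion and the way of counting cannot be told apart.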

How the results depend on the processing

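None of the 58 called changes of members turned its direction under the alternatives run. The median over members tested ran from -0.15 to 0.03 in the DOT1L KO, so its sign was not fixed. For the ENL KO it lay between -0.17 and -0.04, for HEL between 0.09 and 0.56. Of the values of the 58 changes under the alternatives, 757 kept their side of the threshold and 123 lost it. Counts of members called moved by over 1.5 times in these cases. DESeq2 called 3 members in HEL in place of 8 and 4 in the interaction in place of 7, and without the filter 5 were called in HEL. Leaving out each replicate in turn gave 9 to 17 members in the DOT1L KO (main 16), 4 to 9 in the ENL KO (main 8), 15 to 18 between the knockouts (main 19), 4 to 7 in HEL and 3 to 7 in the interaction. K562 control library 2 gave the lowest counts, 9 for the DOT1L KO and 4 for the ENL KO without it. In HEL the count was 5 without control library 1, 4 without control library 2 and 5 without KD library 1. In the interaction it was 4 without HEL control library 1, 3 without HEL control library 2, 4 without KD library 1 and 3 without KD library 2. In fits without 1 of the 2 libraries of a group, the lone sample is assumed to vary like the other groups. With the replicate number as a block, 18 members were called in the DOT1L KO, 9 in the ENL KO, 23 between the knockouts, 8 in HEL and 6 in the interaction. The numbers do not establish a pairing: deviations of same-numbered K562 libraries correlated with r from 0.0531 to 0.220 and those of HEL with 0.000442, while control 2 and DOT1L KO 2 correlated better with ENL KO 3 (0.0881 and 0.0709) than with ENL KO 2. Entering every deposited column, the identical ones included, gave 21 for the DOT1L KO, 11 for the ENL KO and 21 between them; for the interaction, where it gave 7, this was chosen after seeing the data. Depth limits the low members: 33 of 74 in K562 and 60 of 74 in HEL were not tested.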
